A study of Homo sapiens with 6 samples.

Results

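Solute carriers are membrane proteins that move amino acids, sugars, ions, metals, vitamins and metabolites across the plasma membrane and the membranes of organelles, and each family is named by a number after the letters SLC. The members described here are the protein-coding genes (by GENCODE release 29) whose symbol in the authors' table begins with SLC or SLCO and a digit. The release annotates 387 such genes, and 54 of them stood in the table used here. The symbol rule also takes 6 annotated genes named after a carrier without being one, such as SLC2A4RG, and none of these was listed.

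The series compared C4-2B with a subline selected for growth in abiraterone, an inhibitor of the androgen-synthesis enzyme CYP17A1. C4-2B is an established human prostate cancer line, a derivative of C4-2, which came from LNCaP xenografts grown in castrated mice. The labels give 3 libraries of the parental line, passaged in 1% DMSO and labelled passage 0, and 3 of the subline, labelled passage 15 to 18, so passage number and line cannot be told apart. The subline was taken through 1 to 20 µM abiraterone over at least 6 months and kept in 5 µM, and both lines grew in 10% serum. The extraction protocol names 10 µM abiraterone without making clear whether parental cells received it. Each group is 1 cell line and the labels name no separate cultures or clones, so p-values cover only how these libraries vary, which may be technical variation.

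All values come from a DESeq2 comparison by the authors of 2 conditions named C and V. Its table has no column per library, so no value per library can be given and depth is unknown. The header calls C control and V vehicle and gives a positive log2 fold change to genes higher in C. It does not name a cell line for either letter. The letter V is in the titles of the parental libraries, while the series text calls the parental cells the control, so each direction below names only the letter, C or V, in which a gene was higher. Called genes are those with a listed adjusted p under 0.05 (DESeq2 Wald test with Benjamini-Hochberg adjustment). Changes are log2 fold changes, C over V, written ± the standard error. Levels are normalised counts in C and V computed from the mean and the fold change in the table with both sides taken as equally large, and they carry no error. Every gene in the table has p under 0.05 and a log2 fold change beyond 1.200 in size. For a carrier that is not listed, nothing can be said of its level. Of the 9 luminal prostate markers checked, KLK3 (2.17 ± 0.072), KLK2 (2.59 ± 0.084) and KRT8 (-1.45 ± 0.103) were listed in the authors' deposited table, with derived levels of KLK3 of 15170 in C and 3363 in V.

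Carrier genes were called about as often as other genes and lay on both sides. Of the 387 annotated members, 52 (13.4%) were called, against 13.7% of all 19951 annotated protein-coding genes. Among listed protein-coding genes 92.6% were called, and 52 of 54 listed carriers were. Of the 52, 21 (40.4%) were higher in C and 31 (59.6%) higher in V, beside 34.1% and 65.9% of all called protein-coding genes. The median log2 fold change was -1.38 over called carriers and -1.55 over all called protein-coding genes. On the C side the medians were 2.06 for carriers and 1.77 for all, and on the V side -2.08 and -2.35. A log2 fold change of 2 or more in size was reached by 29 of the 52 (55.8%) and by 52.2% of called protein-coding genes. The 95% interval of the fold change lay beyond a log2 of 1 for 44 of the 52, 18 higher in C and 26 higher in V, beside 77.6% of called protein-coding genes. These shares lie near the background, and no test of the carriers as a set was made.

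**Figure D1:**
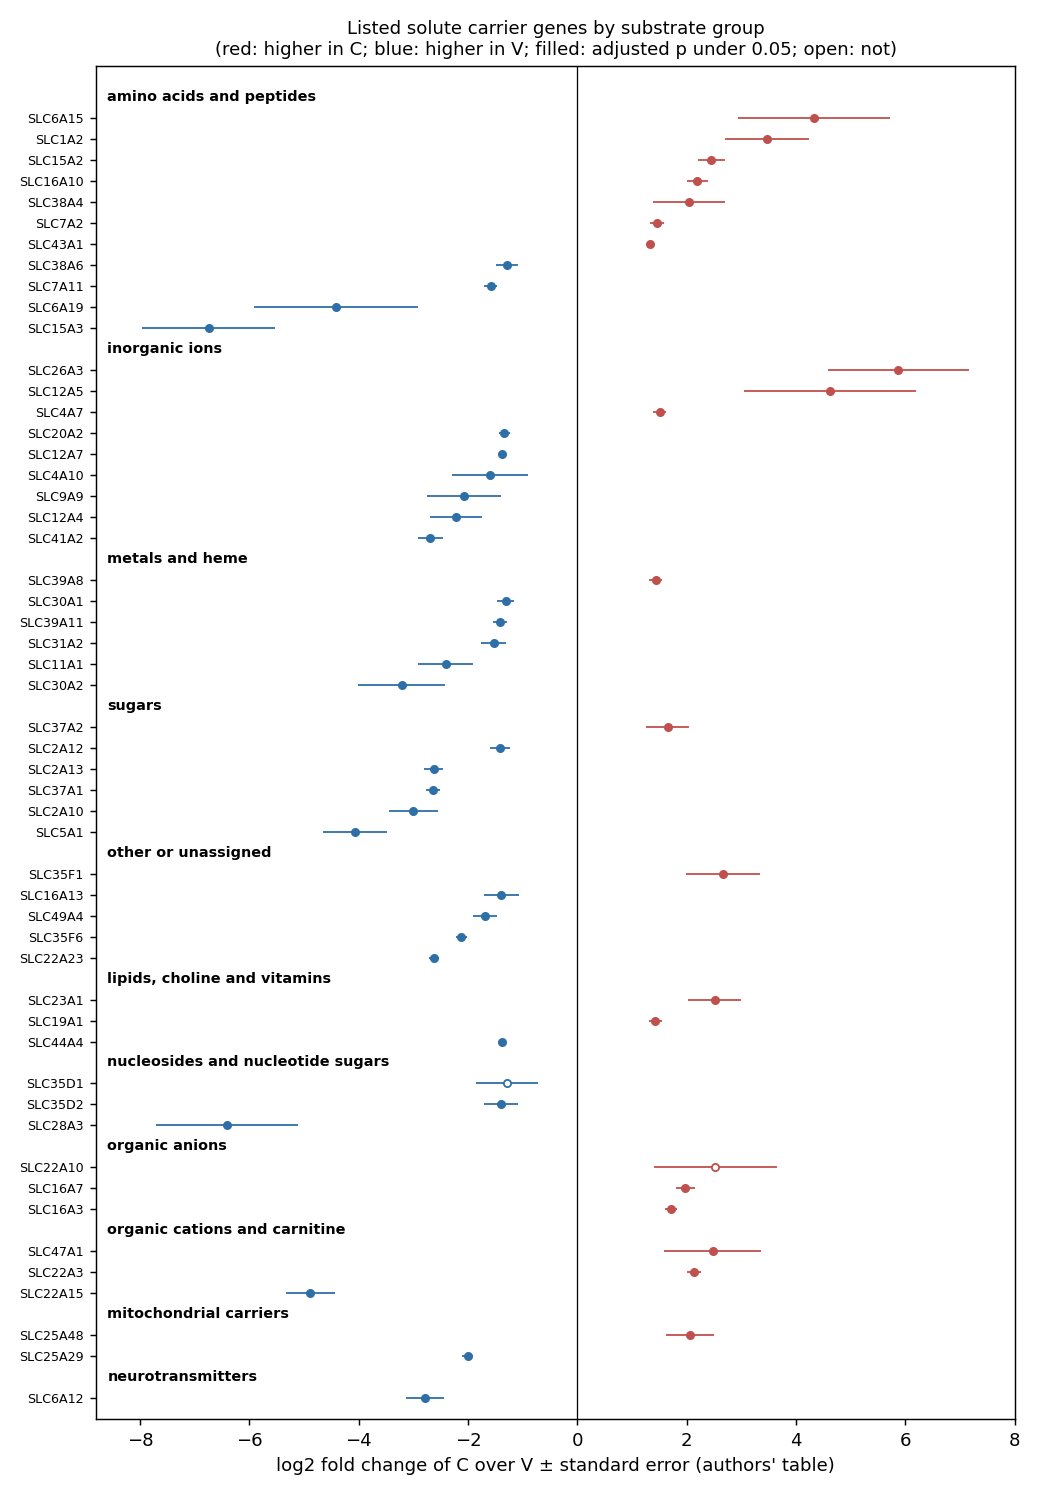
Log2 fold change (C over V) ± standard error from the authors' deposited table (horizontal axis) for the listed solute carrier genes described here, grouped by substrate. Red points are higher in C and blue points higher in V. SLC35D1 and SLC22A10 are open because their adjusted p was not under 0.05.

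The upstream sequences of 6 called carriers show what the text refers to later: SLC22A23 and SLC43A1 have the smallest p on the V and the C side among carriers with a sequence, SLC37A1, SLC2A12 and SLC38A4 hold an interferon-type motif, and SLC30A1 a metal-type motif and, before it, an antioxidant-type one. Each lies in the 250 bases before a RefSeq start (GRCh38.p14), 5′ to 3′ on the gene's strand, with every match to the 6 motifs searched in capitals. The last 84 bases for SLC43A1 and 33 for SLC22A23 were left out because GENCODE places exons there. The sequences shown are chr6:3324184-3324400 on the minus strand for SLC22A23, chr11:57515787-57515952 on the minus strand for SLC43A1, chr21:42513602-42513851 on the plus strand for SLC37A1 (1 of its 2 starts), chr6:134052625-134052874 on the minus strand for SLC2A12, chr12:46825998-46826247 on the minus strand for SLC38A4 and chr1:211579162-211579411 on the minus strand for SLC30A1. By GENCODE, those of SLC22A23, SLC37A1 and SLC38A4 lie in introns of the carrier's own gene, that of SLC38A4 also within the span of the noncoding gene AC008014.1, and those of SLC43A1 and SLC30A1 lie upstream of the gene. That of SLC2A12 is upstream but for its last 12 bases, which are in the first exon and hold the end of its motif. SLC22A23 is in lower case throughout because none was found in its window.
SLC22A23: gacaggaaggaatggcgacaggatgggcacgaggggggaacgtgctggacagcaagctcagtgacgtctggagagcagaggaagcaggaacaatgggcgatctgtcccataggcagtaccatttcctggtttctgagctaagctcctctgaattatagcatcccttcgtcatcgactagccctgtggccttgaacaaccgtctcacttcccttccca
SLC43A1: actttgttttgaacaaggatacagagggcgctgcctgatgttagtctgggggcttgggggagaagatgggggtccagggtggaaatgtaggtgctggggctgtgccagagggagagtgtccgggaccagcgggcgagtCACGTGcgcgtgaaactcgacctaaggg
SLC37A1: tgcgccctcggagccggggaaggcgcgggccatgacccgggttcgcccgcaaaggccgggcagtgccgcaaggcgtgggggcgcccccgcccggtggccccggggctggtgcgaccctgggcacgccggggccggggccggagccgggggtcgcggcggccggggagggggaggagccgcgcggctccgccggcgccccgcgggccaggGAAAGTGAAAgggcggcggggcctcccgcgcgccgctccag
SLC2A12: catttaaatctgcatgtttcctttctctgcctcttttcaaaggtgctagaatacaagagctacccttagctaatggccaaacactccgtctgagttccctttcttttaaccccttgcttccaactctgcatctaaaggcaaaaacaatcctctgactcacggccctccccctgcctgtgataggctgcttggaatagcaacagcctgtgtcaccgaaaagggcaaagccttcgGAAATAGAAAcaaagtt
SLC38A4: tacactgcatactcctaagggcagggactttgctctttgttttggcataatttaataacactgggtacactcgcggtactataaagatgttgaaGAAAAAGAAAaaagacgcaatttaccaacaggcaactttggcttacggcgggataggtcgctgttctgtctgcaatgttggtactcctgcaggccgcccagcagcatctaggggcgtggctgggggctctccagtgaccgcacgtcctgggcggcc
SLC30A1: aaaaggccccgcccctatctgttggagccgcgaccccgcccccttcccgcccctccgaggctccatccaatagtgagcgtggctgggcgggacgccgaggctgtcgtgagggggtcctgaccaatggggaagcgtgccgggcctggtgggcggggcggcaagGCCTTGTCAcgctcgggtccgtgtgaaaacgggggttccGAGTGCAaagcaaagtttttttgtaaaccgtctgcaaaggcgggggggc

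Windows were at hand for 35 of the 52 called carriers, 22 higher in V and 13 higher in C, and were searched on both strands, a gene counting when any of its starts held the motif. The interferon-stimulated response element core (GAAA, any 2 bases, GAAA) was in 3 of the 35 (2 of 22 higher in V, 1 of 13 higher in C), and in 3.71% of 27305 genes. Its holders were SLC37A1 and SLC2A12, higher in V, and SLC38A4, higher in C. A form of the metal response element core, TGCACNC, was in 7 of the 35 (4 of 22 higher in V, 3 of 13 higher in C) and in 11.9% of genes. The form with G in place of the A was not searched and is not in capitals above. The E-box CACGTG, which reads the same on both strands, was in 5 of the 35 (3 of 22 higher in V, 2 of 13 higher in C) and in 7.73% of genes; SLC43A1 holds it. The amino acid response element core TGATGNAA was in 2 of the 35 (2 of 22 higher in V, 0 of 13 higher in C) and 3.89% of genes, the antioxidant response element core TGACNNNGC in 3 of the 35 (2 of 22 higher in V, 1 of 13 higher in C) and 13.2%, and the NF-kB site (GGGA, any 2 bases, TTCC) in 1 of the 35 (1 of 22 higher in V, 0 of 13 higher in C) and 1.73%. A match is a run of letters and not a bound site, and counts this small give no order between motifs.

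Amino acid and peptide carriers were the group with the most called genes, 11 of 56 annotated (13.7% over all protein-coding genes), 7 higher in C and 4 higher in V. The side of C held 34.1% of all called protein-coding genes, and the difference was not tested. Transport of these substrates is divided between exchangers, which trade one amino acid for another, and uniporters or symporters, which let a cell gain amino acids. SLC43A1, a facilitator of branched-chain and other large neutral amino acids known for its abundance in prostate cancer, had derived levels of 1110 in C and 442 in V. Its fold change in the authors' deposited table was 1.33 ± 0.069 (DESeq2 adjusted p = 1.09e-80), the smallest p on the C side, and it lies on chromosome 11, 57484534 to 57515786 (GRCh38). SLC7A11, the cystine-glutamate exchanger that supplies cysteine for glutathione, was the opposite case, with 1053 in C and 3162 in V. Its listed change in the authors' deposited table was -1.59 ± 0.12 (DESeq2 adjusted p = 1.26e-39), on chromosome 4, 138164097 to 138242349. Its mean of 2107 normalised counts was the highest among called carriers.

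A cationic and an aromatic amino acid carrier of the plasma membrane were higher in C. SLC7A2, a carrier of arginine and lysine, had 561 in C and 205 in V, a change of 1.45 ± 0.13 in the authors' deposited table. SLC16A10, a facilitator of aromatic amino acids, had 166 and 36.3 and a change of 2.196 ± 0.19 in the authors' deposited table. For both, as for SLC43A1, the fold change exceeded its standard error more than 10 times. The peptide carriers split. SLC15A2, which takes up di- and tripeptides with protons, was at 70.6 in C and 12.9 in V, with 2.45 ± 0.25 in the authors' deposited table. SLC15A3, a lysosomal carrier of histidine and peptides, was at 0.321 in C and 34.5 in V, with -6.75 ± 1.22 (95% interval -9.15 to -4.35) in the authors' deposited table. Its derived level in C is under 1 normalised count, so its fold change is poorly determined.

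The remaining members of the group belong to the SLC1, SLC6 and SLC38 families, known mainly for sodium-coupled uptake. SLC38A6 had 45.8 in C and 112 in V, with -1.29 ± 0.203 in the authors' deposited table. Its relative SLC38A4, a carrier of neutral and cationic amino acids, went the other way at 27.7 and 6.72, with 2.05 ± 0.65 in the authors' deposited table. SLC1A2, the main glutamate carrier of astrocytes, was low at 30.7 in C and 2.77 in V, with 3.47 ± 0.77 in the authors' deposited table. A processed pseudogene that overlaps SLC1A2 on the other strand was listed as higher in C too, and strand use in counting is not given in the sources used here. SLC6A15, a branched-chain amino acid carrier of neurons, had 145 in C and 7.23 in V. Its change of 4.32 ± 1.39 in the authors' deposited table had a standard error 5.3 times the median of called protein-coding genes whose mean was within a factor of 2. SLC6A19, the neutral amino acid carrier of intestine and kidney, was at 0.2004 in C and 4.27 in V, too low to size its change of -4.41 ± 1.504 in the authors' deposited table.

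**Figure D2:**
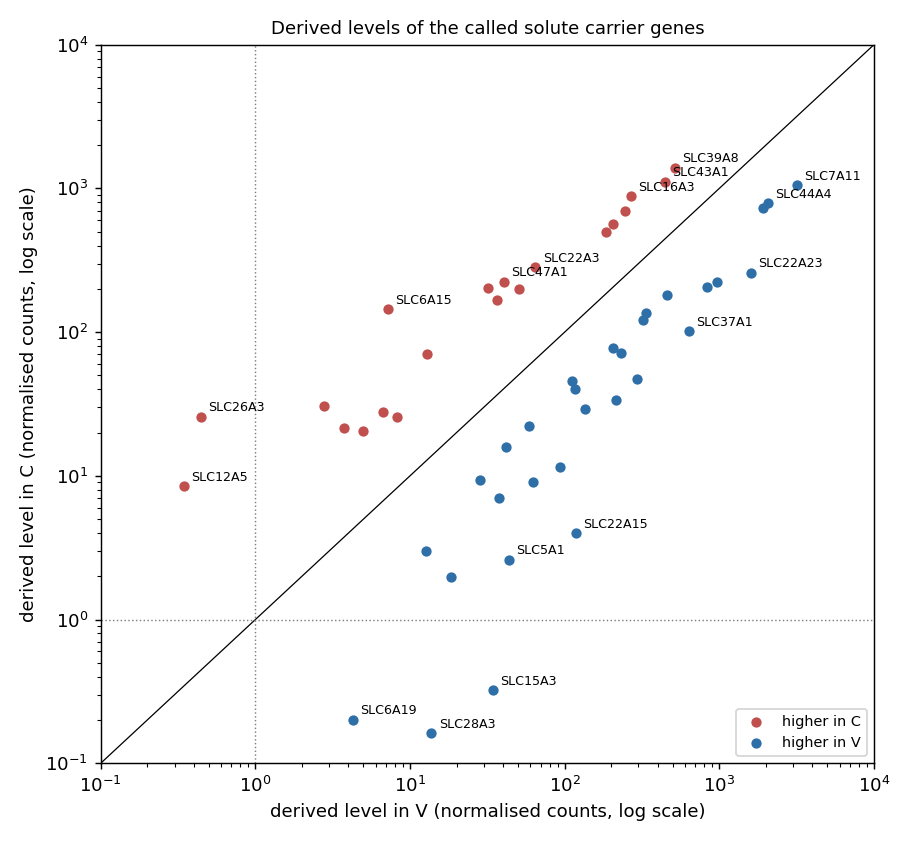
Derived level in V (horizontal, log scale) against derived level in C (vertical, log scale) of the called carriers described here, in normalised counts; the line marks equal levels and the dotted lines mark 1 normalised count. The 5 genes beyond a dotted line are SLC15A3, SLC28A3 and SLC6A19, under 1 in C, and SLC26A3 and SLC12A5, under 1 in V.

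Of 30 annotated sugar carriers 6 were called, 5 of them higher in V, beside 13.7% of all annotated protein-coding genes called and 65.9% of called ones higher in V, and a count this small is not read as a trait of the group. Facilitators of the SLC2 family pass sugars down their gradient, SLC5 members use the sodium gradient, and SLC37 members sit in the endoplasmic reticulum and exchange sugar phosphates for phosphate. SLC37A1 had 102 in C and 636 in V, a change of -2.64 ± 0.13 in the authors' deposited table (DESeq2 adjusted p = 6.81e-91), and lies on chromosome 21, 42496008 to 42581440. The overlapping gene RSPH1 on the other strand was listed too, at a lower mean. SLC2A13, which carries myo-inositol with protons, had 47.1 and 292, a change of -2.63 ± 0.18 in the authors' deposited table. These changes differed by less than either standard error.

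Called carriers of glucose were SLC2A12, SLC2A10 and SLC5A1. SLC2A12 had 77.03 in C and 205 in V, with -1.41 ± 0.18 in the authors' deposited table. SLC2A10 had 11.6 and 93.02, with -3.003 ± 0.45 in the authors' deposited table. SLC5A1, the sodium-glucose carrier of the gut, had 2.61 and 43.7, with -4.07 ± 0.59 in the authors' deposited table. All 3 were higher in V, and SLC5A1 was the farthest shifted of the sugar carriers. The single one higher in C was SLC37A2, a relative of SLC37A1, at 25.7 in C and 8.19 in V, with 1.65 ± 0.39 in the authors' deposited table. SLC2A1 and SLC2A3, the widely expressed glucose carriers, were not among the listed genes.

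Among the 51 annotated genes for organic anions 2 (3.92%) were called, beside 13.7% over all annotated protein-coding genes. Both were higher in C, the side on which 34.1% of that background's called genes lay. These differences were not tested, and nothing is read from so few genes. Both carriers move lactate and pyruvate with protons. SLC16A3, the low-affinity form known for lactate export from glycolytic cells, had 883 in C and 269.8 in V. Its change was 1.71 ± 0.105 in the authors' deposited table (DESeq2 adjusted p = 4.36e-58), on chromosome 17, 82228397 to 82261129. SLC16A7, the high-affinity form, had 200.3 and 50.9, with 1.98 ± 0.17 in the authors' deposited table. Per kilobase of exon, SLC16A3 was at 98.1 and SLC16A7 at 14.7 normalised counts in C. SLC16A1, the third lactate carrier checked, and the steroid and bile acid carriers of the SLCO and SLC10 families were not among the listed genes. SLC22A10 (2.52 ± 1.12) was listed in the authors' deposited table with an adjusted p of 0.0563 by DESeq2 and was not called.

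Organic cation carriers had 3 called of 9 annotated, beside 13.7% of all annotated protein-coding genes. A count this small is not read as a trait of the group. SLC22A3, a polyspecific carrier of monoamines and cationic drugs, had 284 in C and 64.7 in V, with 2.13 ± 0.13 in the authors' deposited table (DESeq2 adjusted p = 1.04e-60). SLC22A15 was far lower in C, at 3.998 against 118 in V, with -4.89 ± 0.45 in the authors' deposited table. Its 95% interval, -5.77 to -4.00, lay wholly beyond a log2 of -3, and neither of its sides fell under 1 normalised count. SLC47A1, which exports cations in exchange for protons, had 224 and 40.3, with 2.47 ± 0.89 and an adjusted p of 0.0148 by DESeq2 in the authors' deposited table. Its standard error was 4.66 times that of genes of like mean. The ribosomal protein pseudogene RPL17P43, which lies within SLC47A1 on the same strand, was itself listed in the authors' deposited table with a mean of 1086 normalised counts, higher in C.

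**Figure D3:**
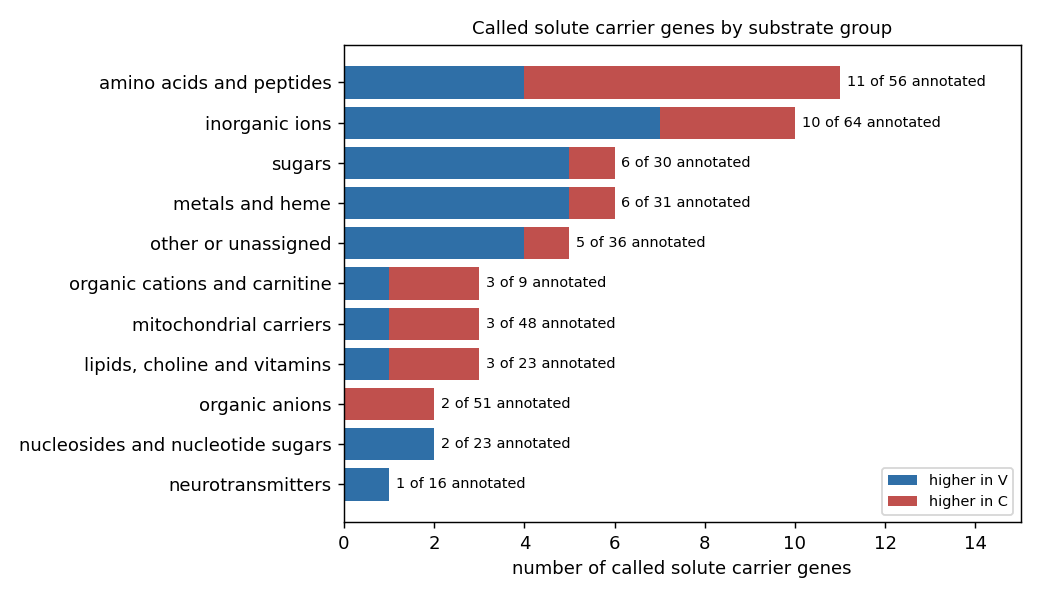
Number of called carrier genes (horizontal axis) by substrate group, blue for higher in V and red for higher in C, with the number annotated in each group beside the bar. Amino acid and peptide carriers had 11 called genes, 7 of them higher in C, and sugars and metals had 5 of 6 higher in V. Of all called protein-coding genes 65.9% were higher in V.

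Inorganic ion carriers had 10 called of 64 annotated, 7 higher in V and 3 higher in C. These lie near the 13.7% of all annotated protein-coding genes called and the 65.9% of called ones higher in V. The potassium-chloride cotransporters of the SLC12 family let cells shed salt and shrink. SLC12A7 had 732 in C and 1902 in V, a change of -1.38 ± 0.061 in the authors' deposited table (DESeq2 adjusted p = 1.25e-111), the smallest p of this group, on chromosome 5, 1050376 to 1112035. SLC12A4 had 29.02 and 136, with -2.22 ± 0.48 in the authors' deposited table; the neighbouring gene LCAT overlaps it on the same strand and was also higher in V. SLC12A5, the neuronal form, was at 8.44 in C and 0.343 in V, with 4.62 ± 1.57 in the authors' deposited table, and its V level under 1 leaves that size poorly determined.

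Carriers that set intracellular pH lay on both sides. SLC4A7, which brings in bicarbonate with sodium, had 691 in C and 244 in V, with 1.502 ± 0.12 in the authors' deposited table. SLC9A9, an endosomal exchanger, was at 3.001 and 12.6, with -2.08 ± 0.68 in the authors' deposited table. SLC4A10, a bicarbonate carrier of neurons, was at 9.37 and 28.5, with -1.604 ± 0.69 and an adjusted p of 0.0475 by DESeq2 in the authors' deposited table, close to the limit. SLC26A3, the chloride-bicarbonate exchanger of the colon, was at 25.9 in C and 0.442 in V, with 5.87 ± 1.29 in the authors' deposited table and a V level under 1.

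A phosphate carrier and a magnesium carrier were higher in V, 1 called gene of each family. SLC20A2, which takes up phosphate with sodium, had 182 in C and 458 in V, with -1.33 ± 0.11 in the authors' deposited table. SLC41A2, a magnesium carrier, had 33.5 and 216, with -2.69 ± 0.22 in the authors' deposited table, the farthest toward V in the ion group. A noncoding gene that overlaps SLC20A2 was listed at a mean far under that of the carrier and in the other direction.

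Of 31 annotated metal carriers 6 (19.4%) were called, beside 13.7% of all annotated protein-coding genes. Higher in V were 5 of them, beside 65.9% of all called protein-coding genes. Counts this small are not read as traits of the group. Zinc, for which the prostate is known, enters the cytosol through SLC39 members and leaves it through SLC30 members. SLC39A8, an importer of zinc and manganese, was the single one higher in C, with 1393 in C and 516 in V. Its listed change in the authors' deposited table was 1.43 ± 0.12 (DESeq2 adjusted p = 2.82e-32). SLC39A11, of the same family, had 121 and 323, with -1.41 ± 0.13 in the authors' deposited table. SLC30A1, the zinc exporter of the plasma membrane, had 136 and 338, with -1.31 ± 0.15 in the authors' deposited table; its window above holds metal-type and antioxidant-type motifs. SLC30A2, which loads zinc into vesicles, was at 1.98 and 18.4, with -3.22 ± 0.796 in the authors' deposited table. Of 24 zinc carriers checked, these 4 were listed and called, beside the 13.7% given above. Both exporters among them were higher in V, and nothing is read from so few genes.

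The other metal carriers were SLC31A2, a relative of the copper importer, at 40.2 in C and 116 in V, with -1.53 ± 0.23 in the authors' deposited table, and SLC11A1. SLC11A1, a metal carrier of macrophage phagosomes, was at 7.06 in C and 37.5 in V, with -2.41 ± 0.51 in the authors' deposited table. SLC11A1 and SLC15A3 are known from myeloid cells. Of the leukocyte markers checked, 4 (PTPRC, LYZ, ITGAM and CD14) were called, all higher in V, and CD3E was not among the listed genes. Their highest derived level was 35.7 normalised counts in V, for PTPRC, and 0.907 in C, for ITGAM. Of 5 fibroblast markers COL1A1 and PDGFRB were called, on opposite sides, and of 5 endothelial markers ROBO4, PECAM1 and ESAM were called, all higher in V with derived levels there of at most 30.8. Each group is labelled as 1 cell line. Whether any such cells were present was not tested, nor was any part of theirs in these fold changes. In such bulk samples fewer cells with a transcript and less of it per cell cannot be told apart.

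Mitochondrial carriers, the largest family at 48 annotated genes, had 3 called. These proteins exchange metabolites across the inner membrane. SLC25A29, a carrier of basic amino acids, had 206 in C and 827 in V, a change of -2.01 ± 0.099 in the authors' deposited table (DESeq2 adjusted p = 8.01e-90). SLC25A48 went the other way at 20.6 and 4.95, with 2.06 ± 0.44 in the authors' deposited table. The share called was 6.25% of annotated members, beside 13.7% of all protein-coding genes, and the difference was not tested.

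Lipid, choline and vitamin carriers had 3 called of 23 annotated, a share near the 13.7% of all annotated protein-coding genes called. A count this small is not read as a trait of the group. SLC44A4, of the choline transporter-like family and known from secretory epithelia, had 791 in C and 2058 in V, a change of -1.38 ± 0.076 in the authors' deposited table (DESeq2 adjusted p = 3.38e-72). Per kilobase of exon it was the highest called carrier in V, at 610.2 normalised counts, and stood at 235 in C, where SLC43A1 was the highest at 314. The antisense gene EHMT2-AS1 overlaps SLC44A4 and was listed as higher in V as well. SLC19A1, which brings reduced folates and antifolate drugs into the cell, had 501 and 186, with 1.43 ± 0.13 in the authors' deposited table. SLC23A1, a vitamin C carrier, was at 21.4 and 3.75, with 2.51 ± 0.48 in the authors' deposited table.

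The called carriers of nucleosides and nucleotide sugars, 2 of 23 annotated, were higher in V. Over all annotated protein-coding genes 13.7% were called, 65.9% of these higher in V. Counts this small, here and in the neurotransmitter group below, are not read as traits of a group. SLC28A3, which concentrates nucleosides, was at 0.161 in C and 13.8 in V, with -6.41 ± 1.296 in the authors' deposited table, and its C level under 1 leaves the size poorly determined. SLC35D2, a nucleotide-sugar carrier, had 22.2 and 58.7, with -1.404 ± 0.31 in the authors' deposited table. Its relative SLC35D1 (-1.29 ± 0.57) was listed in the authors' deposited table with an adjusted p of 0.0524 by DESeq2 and was not called. SLC6A12, a betaine and GABA carrier, was the single called gene of 16 in the neurotransmitter group, at 8.996 in C and 62.1 in V, with -2.79 ± 0.35 in the authors' deposited table. With SLC1A2 counted as a neurotransmitter carrier and SLC6A12 not, the single called gene of that group was higher in C instead.

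Carriers with no settled substrate held the smallest p of all. SLC22A23, an orphan member of the SLC22 family, had 258 in C and 1596 in V. Its change of -2.63 ± 0.081 in the authors' deposited table had the smallest adjusted p of any carrier (DESeq2, 1.43e-229), on chromosome 6, 3268962 to 3457022. SLC35F6 had 222 and 967, with -2.12 ± 0.097 in the authors' deposited table (DESeq2 adjusted p = 7.31e-103). SLC49A4, a lysosomal membrane protein named DIRC2 in the release, had 71.3 and 231, with -1.69 ± 0.22 in the authors' deposited table. SLC16A13 had 15.96 and 41.8, with -1.39 ± 0.32 in the authors' deposited table. These 4 were higher in V. SLC35F1 was higher in C at 201 against 31.8, with 2.66 ± 0.67 in the authors' deposited table and a standard error 3.21 times that of genes of like mean.

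Families did not move as units. The 52 called genes fell in 29 of 51 annotated families, and 15 families had at least 2 called members. In 12 of these, called members lay on both sides, and in the other 3, SLC2 and SLC30 among them, all called members were higher in V. Pairs on opposite sides with standard errors under 0.2 included SLC7A2 and SLC7A11, SLC22A3 and SLC22A23, and SLC39A8 and SLC39A11. In SLC16, the lactate and aromatic amino acid carriers SLC16A3, SLC16A7 and SLC16A10 were higher in C and SLC16A13 higher in V. With 21 and 31 genes on the sides, mixed families are a description of where members lay, and no test of mixing was made.

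**Figure D4:**
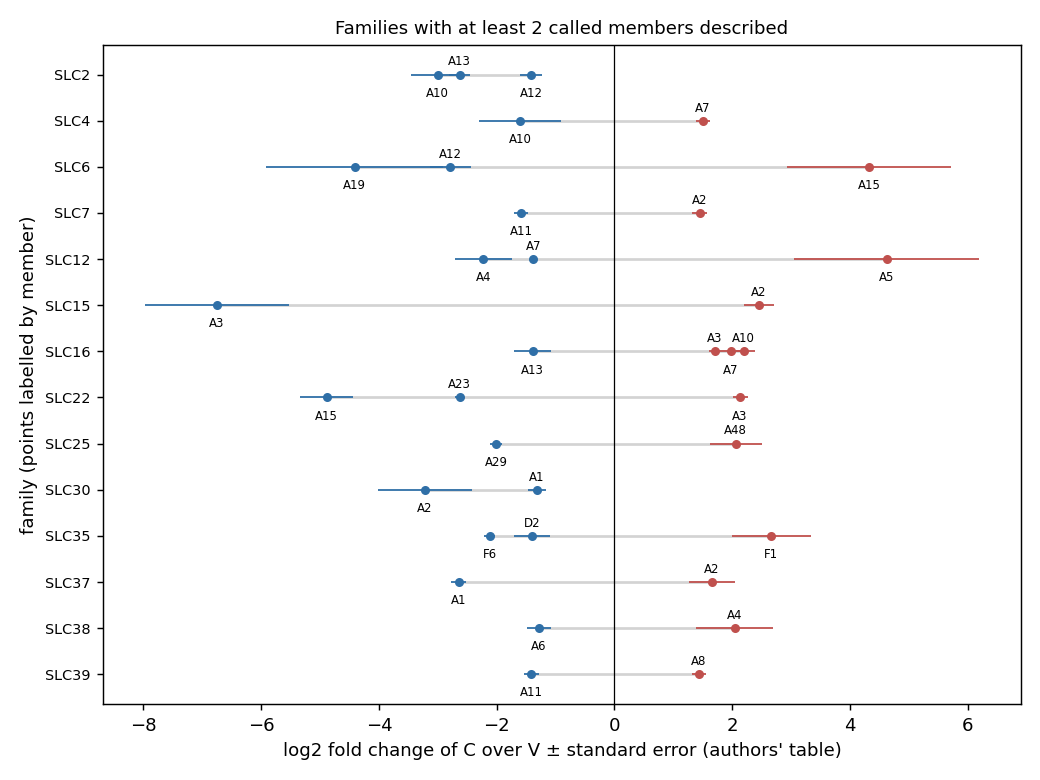
Log2 fold change (C over V) ± standard error (horizontal axis, from the authors' deposited table) for families with at least 2 called members described here (vertical axis), each point labelled by its member. In 12 of the families drawn, points lie on both sides of 0.

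Carriers grouped by what they are known to respond to did not lie on 1 side in most lists. These lists were drawn up with earlier results of these data known, and are not independent evidence. Of 12 amino acid carriers known as targets of the stress factor ATF4, 2 were called, SLC43A1 higher in C and SLC7A11 higher in V. Of 8 linked to interferon, 5 were called, SLC37A1, SLC41A2, SLC2A12 and SLC15A3 higher in V and SLC7A2 higher in C, with a median log2 fold change of -2.64 beside -1.55 over all called protein-coding genes. Over all annotated protein-coding genes 13.7% were called, 65.9% of these higher in V. The lists in this paragraph hold few called genes and were drawn up with results known. Nothing is therefore read from the counts of any of them, before or after this point. Of 13 known for androgen response or abundance in prostate, 5 were called, SLC43A1 and SLC26A3 higher in C and SLC44A4, SLC2A12 and SLC2A10 higher in V. The prostate carrier SLC45A3 was not among the listed genes. Of 27 steroid, bile acid and drug carriers, SLC22A3 and SLC47A1 were called, both higher in C.

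Of 41 symbols of partner proteins checked, 6 were called, beside 13.7% of all annotated protein-coding genes. All 6 were higher in V, beside 65.9% of all called protein-coding genes. The list was drawn up with results known, and a count this small is not read as a trait of the partners. GLUL, which makes glutamine, was at 1134 in C and 3114 in V, with -1.46 ± 0.057 in the authors' deposited table. ATP1B1, a subunit of the sodium pump that powers sodium-coupled carriers, was at 179 and 691, with -1.95 ± 0.105 in the authors' deposited table. GCLM, a subunit of the enzyme that uses cysteine for glutathione, was at 248 and 736, with -1.57 ± 0.102 in the authors' deposited table, on the side of SLC7A11. FXYD3 (-4.41 ± 0.51), a regulator of the pump, SPNS2 (-8.25 ± 1.204), a sphingosine phosphate exporter, and MT1F (-1.72 ± 0.68), a metal-binding protein, followed in the authors' deposited table. SPNS2 was at 0.206 in C and 62.8 in V, and its C level under 1 leaves the size of its change poorly determined. SLC3A2, the heavy chain that SLC7A11 pairs with and itself a member, and BSG, which brings lactate carriers to the membrane, were not among the listed genes.

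Precision differed widely among members. Means ran from 2.24 to 2107 normalised counts, with a median of 109 over called carriers and 75.00 over all called protein-coding genes. The median standard error was 0.23 for carriers and 0.29 for all. Derived levels under 1 on the lower side occurred in 5 of the 52 carriers (9.62%) and in 16.2% of called protein-coding genes. SLC6A15, SLC47A1 and SLC35F1 had standard errors at least 3 times the median of genes of like mean, and all 3 were higher in C. At means of 76.01, 132 and 117, these errors were larger than those of 99.5%, 96.2% and 93.2% of called protein-coding genes of like mean. The spread within each side is not given in the table used here. Without these 3 genes, 18 carriers were higher in C and 31 higher in V.

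**Figure D5:**
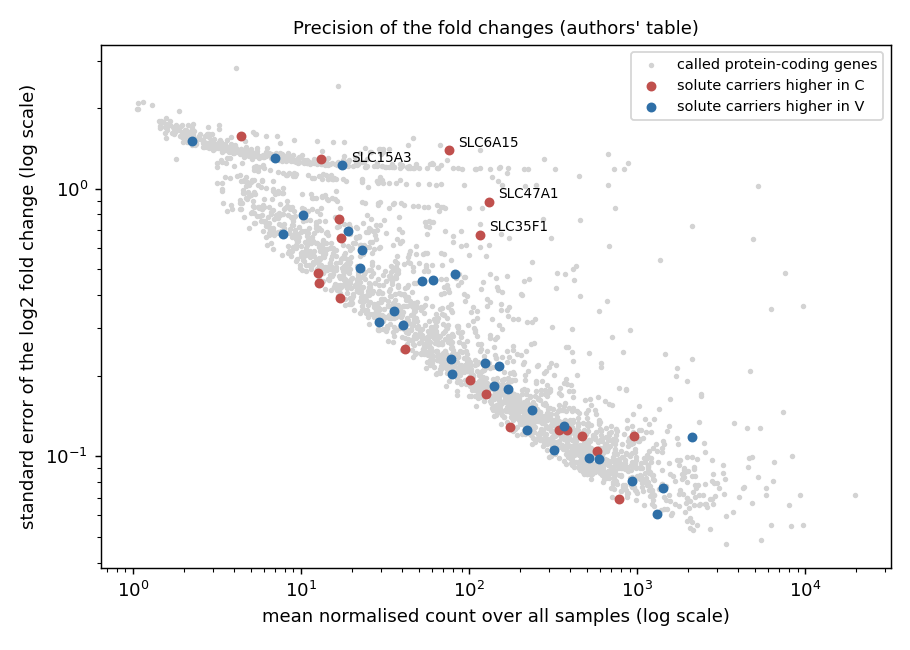
Mean normalised count over all samples (horizontal, log scale) against the standard error of the log2 fold change (vertical, log scale), for called protein-coding genes in grey and the called carriers described here in red (higher in C) and blue (higher in V), from the authors' deposited table. SLC6A15, SLC47A1, SLC35F1 and SLC15A3, whose standard errors are at least 2 times the median of genes of like mean, are named.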

How the data were processed

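RNA sequencing libraries, 3 per cell line, were made from 1 µg of total RNA and read as 50 bp single ends, per the labels' protocols, which name 2 kits, one for mRNA and one for stranded total RNA. Only the authors' DESeq2 result table was used. Its mean of normalised counts is a signal value computed by the authors, its log2 fold change is the authors' maximum likelihood estimate, its standard error and Wald statistic are score columns of the authors, and its p-value and adjusted p-value are the authors' own, per the file headers. The submitters' processing notes name FastQC and Cufflinks 2.2.1. For the aligner, the counter and the build, each is not given in the sources used here.

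Identifiers were joined to GENCODE release 29 (GRCh38), which holds 5935 of 6018; levels, intervals (fold change ± 1.96 standard errors) and counts were computed in Python 3.11.15 with pandas 2.3.3, on a derivation tested on simulated data. For 4 genes an adjusted p of 0 beside a larger p was read as not given. Lengths are exon unions. In each substrate group up to 4 called members with the smallest p in each direction were to be described in full, and every called member may be named. Counts cover all members, but the values of some are not reported here. The rule's printed proteins were not used here. Members, lists, motifs and substrate groups were chosen with earlier results of these data known. No test across libraries was possible; alternatives changed the threshold, size, mean, lower level, gene type and symbols.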

Additional observations from a re-analysis of the deposited data

How the results depend on the processing

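The number of called carriers (52, with 21 higher in C and 31 higher in V) stayed within 1.5 times under an adjusted p under 0.01, an interval beyond a log2 of 1, a mean of at least 10, a lower level of at least 1, any gene type and newer symbols. A log2 fold change of 2 or more in size left 29 carriers, 12 higher in C and 17 higher in V, and moved the median log2 fold change from -1.38 to -2.12 because smaller changes were dropped. A mean of at least 100 left 27 carriers, 12 and 15. Leaving out the 3 genes with a large standard error, chosen after seeing the data, gave 49 carriers. Under the alternative substrate groups the counts per group were unchanged, but SLC1A2, higher in C, took the place of SLC6A12, higher in V, as the single neurotransmitter carrier, and amino acid carriers became 6 higher in C and 5 higher in V. No paired analysis was possible because the table has no column per library; leaving out libraries and another normalisation were not run for the same reason. Depth per library is unknown, and 25 called carriers had a mean under 100 normalised counts.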

Other observations

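Genes with carrier names that are not protein coding were outside the comparisons above. Listed were 10, all of them called, beside 5380 of all 6018 listed genes. Of these, 8 lay on the C side and 2 on the V side, beside 34.1% of called protein-coding genes higher in C. The sides of other noncoding genes were not compared, and a count this small is not read as a trait of these genes. The pseudogenes SLC25A5P3 (1.96 ± 0.19), SLC25A1P1 (2.52 ± 0.295), SLC25A6P2 (1.28 ± 0.24) and SLC25A39P1 (4.04 ± 1.03) had in the authors' deposited table their higher level in C, while the parent genes SLC25A5, SLC25A1, SLC25A6 and SLC25A39 were not among the genes listed. Pseudogenes can share reads with their parents, so their values are uncertain. SLC16A1P1 (5.15 ± 1.72) and SLC16A6P1 (1.83 ± 0.42) lay, per the authors' deposited table, on the C side, as did the antisense genes SLC16A1-AS1 (1.73 ± 0.25) and SLC26A4-AS1 (1.87 ± 0.46). The derived levels of SLC16A1P1 were 3.69 in C and 0.104 in V, too low to size its change. SLC9A3-AS1 (-2.18 ± 0.24) and SLC25A30-AS1 (-1.79 ± 0.76) lay, per the authors' deposited table, on the V side.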
